A study of Mus musculus with 27 samples.

Results

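The BCL2 family of cell death regulators was followed as 10 genes, Bcl2, Bcl2l1, Mcl1, Bax, Bak1, Bid, Bad, Bcl2l11, Pmaip1, and Bbc3, in bulk RNA-seq of mouse embryonic fibroblasts (MEFs) on the way to induced neurons (iNs). The members were the rows of a gene table of 54532 genes that carried one of these 10 names, and each name matched 1 row. The rows were taken by name, not by their values, but the members were chosen with earlier results of these data known. All 10 passed the minimum for testing, which was 0.5 FPKM on average across the 27 libraries, as did 14932 genes in all. FPKM counts fragments relative to exon length and sequencing depth, so that levels can be compared between genes.

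Proteins of this family decide whether the outer membrane of the mitochondria stays closed. BAX and BAK, when active, form pores in it and release cytochrome c, which starts the caspase cascade through APAF1 and caspase 9. BCL2, BCL-XL (from Bcl2l1), and MCL1 hold BAX and BAK in check, and the BH3-only proteins BID, BAD, BIM (from Bcl2l11), NOXA (from Pmaip1), and PUMA (from Bbc3) bind these guardians or activate the pore formers directly. Much of this control lies in protein binding, cleavage, phosphorylation, and turnover, which transcript levels do not show.

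The 27 libraries came from 9 groups of 3 replicates: WT, Per1-/-, and Per2-/- MEFs, each on days 0, 2, and 4 of reprogramming. Per1 and Per2 encode repressors of the circadian clock, and the mutant lines carry targeted alleles in every cell; the study bred heterozygotes for all 3 genotypes. MEFs were grown from pooled embryos without head and heart and hold some macrophages. Cells of all 9 groups received lentiviruses with doxycycline-inducible reprogramming factors and the transactivator M2rtTA before day 0. Doxycycline was added on day 0 together with a defined medium (N3) in place of serum, so the day, the induction, the medium, and the subculture that preceded them cannot be told apart in any difference between days. The labels do not say whether replicates were separate embryo pools or cultures, and p-values measure the spread between these libraries. Every sample is labelled as induced neurons, but 7 of 16 neuron markers averaged under 0.1 FPKM on day 0: Dcx, Snap25, Syt1, Elavl3, Rbfox3, Stmn3, and Syp. Rbfox3 still did so on day 4. Other markers of this list were present on day 0, with Gap43 at 31.7, Tubb3 at 26.7, Ncam1 at 17.6, and Stmn2 at 12.3 FPKM.

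Fragments on genes ranged from 15815013 to 24264097 per library. Per1 averaged 5.78 ± 0.48 FPKM in WT and 4.11 ± 0.87 in Per1-/- libraries on day 0 (SD, n = 3 each). Per2 averaged 0.894 ± 0.071 FPKM in WT libraries on day 0 and 1.93 ± 0.07 in those labelled Per2-/-, against the label; the latter are therefore called libraries labelled Per2-/- throughout. The study's own check of the genotypes was made on the PER1 and PER2 proteins, not on transcripts. By its western blots, PER1 was lost in Per1-/- MEFs and PER2 in Per2-/- MEFs. Which part of either gene the alleles remove is not given in the sources used here, so these levels do not check the labels.

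A gene was called changed when limma's moderated test on log2(FPKM + 0.1), adjusted over all 14932 genes (Benjamini-Hochberg), gave an adjusted p no higher than 0.05 and the fold change reached 0.58 in either direction on the log2 scale. Averaged over the 3 genotypes, 6 of the 10 members were called between day 0 and day 4: Bcl2l11 rose, and Bcl2l1, Bax, Bak1, Bid, and Pmaip1 fell. Of all tested genes 45.6% were called in this comparison, 24.4% up and 21.2% down, so a member called was not unusual as such. Between day 0 and day 2, 5 members were called, Bcl2l11 up and Bcl2, Bak1, Bid, and Pmaip1 down, with 42.0% of all genes called (22.2% up and 19.9% down). Both comparisons share the day 0 libraries. Between day 2 and day 4 limma called 0 members, with 9.97% of all genes called, although 8 of the 10 had an unadjusted p under 0.05; voom weights also gave 0, with 7 at such a p. The median log2 fold change of the 10 members was -0.52 from day 0 to day 4 and -0.55 from day 0 to day 2, beside -0.01 for all tested genes in both.

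**Figure D1:**
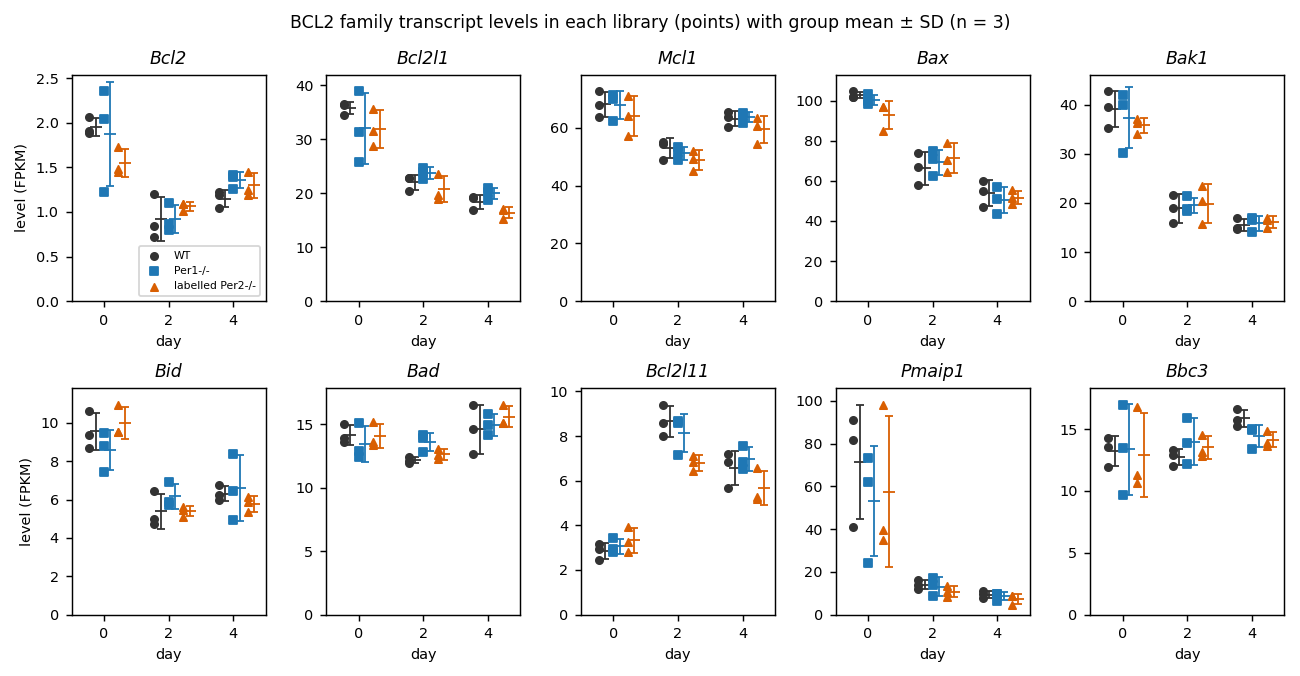
Level in FPKM (vertical axes, from 0, a scale for each gene) of the 10 members by day (horizontal axes) in WT libraries (circles), Per1-/- libraries (squares), and libraries labelled Per2-/- (triangles); points are libraries and bars are group means ± SD (n = 3). Pmaip1 lies at 24 to 98.3 FPKM on day 0 and at 4.39 to 16.9 FPKM later, and Bcl2l11 is the member whose later libraries all lie above its day 0 libraries.

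These changes are relative to the scaling of the deposited FPKM. When the FPKM of each library were rescaled to a common sum, the median gene moved by 0.37 from day 0 to day 2 and by 0.30 from day 0 to day 4 on the log2 scale. The share of upward calls among all calls then rose from 52.7% to 80.6% for day 2 and from 53.5% to 74.2% for day 4. On that scale Bcl2l11 rose and Pmaip1 fell by day 2, the only 2 members called, and by day 4 Bcl2l11 rose and Bax, Bak1, and Pmaip1 fell. Relative to the median gene on that scale the averaged changes were close to those given here, for example -0.92 for Bax and 1.06 for Bcl2l11 on day 4. This closeness was built in and is no further check. Rescaling multiplies all genes of a library by 1 factor, and taking off the median removes most of that shift. Ratios between members within a library do not depend on the scaling.

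Pmaip1, which encodes NOXA, an inhibitor of MCL1 that p53 induces, had the widest spread of its 9 group means among the members. On day 0 its level was 81.9, 91.1, and 41.0 FPKM in WT, 24, 62.2, and 73.1 in Per1-/-, and 98.3, 34.8, and 39.7 in libraries labelled Per2-/-. On day 2 it was 16.1, 13.8, and 11.8 in WT, 8.49, 16.9, and 13.9 in Per1-/-, and 13.2, 10.5, and 8.41 in libraries labelled Per2-/-. On day 4 it was 10.8, 9.41, and 7.73 in WT, 6.32, 9.54, and 9.59 in Per1-/-, and 8.66, 8.65, and 4.39 in libraries labelled Per2-/-. Day 0 libraries differed from each other far more than later ones, and yet the lowest of them lay above all 18 libraries of days 2 and 4. Over 9 libraries the coefficient of variation was 44.3%, 24.1%, and 23.4% on the 3 days, and on day 0 it was the highest of the 10 members. Pmaip1 fell by 2.16 ± 0.24 on the log2 scale by day 2 (± SE, adjusted p = 5.6e-08) and by 2.75 ± 0.24 by day 4 (adjusted p = 1.2e-09), a 6.71-fold lower level, and was called in each genotype on both days. Leaving out any 1 library kept the day 4 change between -2.91 and -2.59. From day 2 to day 4 the difference was -0.59 with an adjusted p of 0.071. It was called when the fit left out Per1-/- day 0 replicate 1 (-0.59, adjusted p = 0.039), Per2-/- day 0 replicate 1 (-0.59, adjusted p = 0.044), or Per1-/- day 2 replicate 1 (-0.68, adjusted p = 0.043). It was also called with FPKM rescaled to a common sum (-0.67, adjusted p = 0.031) and when only the compared groups were fitted (-0.59, adjusted p = 0.013). A limma fit with genotype and replicate number as a block called it as well (-0.59, adjusted p = 0.0050).

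Bcl2l11, which encodes BIM, a binder of all the main anti-apoptotic proteins, was the one member that rose. On day 0 its level was 2.45, 2.93, and 3.16 FPKM in WT, 3.43, 2.82, and 2.93 in Per1-/-, and 3.24, 3.94, and 2.81 in libraries labelled Per2-/-. On day 2 it was 8.58, 8.02, and 9.41 in WT, 7.17, 8.58, and 8.69 in Per1-/-, and 7.13, 6.82, and 6.41 in libraries labelled Per2-/-. On day 4 it was 6.82, 5.69, and 7.19 in WT, 6.53, 6.82, and 7.57 in Per1-/-, and 6.57, 5.25, and 5.19 in libraries labelled Per2-/-. Every library of days 2 and 4 lay above every day 0 library, as for 19.7% and 19.8% of all tested genes, while days 2 and 4 overlapped. The averaged change was 1.33 ± 0.08 by day 2 (adjusted p = 1.3e-12) and 1.03 ± 0.08 by day 4 (adjusted p = 5.8e-11), or 2.51-fold and 2.05-fold, and the rise was called in each genotype on both days. No library's removal changed these calls. From day 2 to day 4 the level was lower by a log2 difference of -0.29 (95% interval -0.45 to -0.14), under the fold minimum.

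The promoters of Bcl2l11 and of Bax are shown because these genes moved in opposite directions and because CACGTG, the E-box through which the CLOCK and BMAL1 proteins act and PER proteins repress, is among the motifs searched. The sequences are RefSeq windows on GRCm38.p6, each from 250 bases before to 50 bases after a transcription start, 5′ to 3′ on the strand of the gene; capitals mark every motif found.
Bcl2l11 (chr2:128125788-128126087, plus strand): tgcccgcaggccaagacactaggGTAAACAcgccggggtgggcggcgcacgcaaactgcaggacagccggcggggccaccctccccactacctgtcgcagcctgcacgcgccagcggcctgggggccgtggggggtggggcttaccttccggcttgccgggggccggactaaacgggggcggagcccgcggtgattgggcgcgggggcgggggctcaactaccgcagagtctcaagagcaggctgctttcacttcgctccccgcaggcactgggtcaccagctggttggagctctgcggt
Bax (chr7:45466849-45467148, minus strand): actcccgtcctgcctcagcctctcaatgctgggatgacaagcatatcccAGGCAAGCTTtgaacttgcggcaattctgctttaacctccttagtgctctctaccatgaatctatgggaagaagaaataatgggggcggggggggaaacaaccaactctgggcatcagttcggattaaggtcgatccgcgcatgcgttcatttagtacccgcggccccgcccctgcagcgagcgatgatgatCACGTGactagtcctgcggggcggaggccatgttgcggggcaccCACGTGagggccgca
Both strands were searched for this motif, for the core bound by forkhead factors such as FOXO3, TGTTTAC, and for the p53 half-site. Bax held CACGTG at 2 places, with first bases at -9 and 35 from the start site, and 1 p53 half-site at -201. Bcl2l11 held TGTTTAC, on the other strand, at -227. Of 32851 windows of this length in the mouse genome, 7.15% held CACGTG, 3.65% held the forkhead core, and 8.36% held a p53 half-site. Pmaip1 was left out of the search of member windows, so the member counts given next do not cover its promoter. The search took in 9 of the 10 members, with 15 windows in all. CACGTG was in 2 of them (Bax and a window of Bbc3), the forkhead core in 2 (Bcl2l11 and another window of Bbc3), and the p53 half-site in 1. A match says only that the letters are present.

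Both pore formers fell. Bax, on chromosome 7 from 45461697 to 45466898 (GRCm38), was the member with the highest mean level. On day 0 its level was 102, 102, and 105 FPKM in WT, 98.2, 99.6, and 103 in Per1-/-, and 96.8, 96.9, and 85.0 in libraries labelled Per2-/-. Levels on day 2 were 73.9, 57.8, and 66.8 in WT, 62.5, 70.7, and 74.9 in Per1-/-, and 79.1, 70.6, and 64.4 in libraries labelled Per2-/-. Levels on day 4 were 55.1, 47.0, and 59.8 in WT, 50.9, 43.7, and 56.9 in Per1-/-, and 51.5, 55.3, and 48.3 in libraries labelled Per2-/-. No day 2 or day 4 library reached the lowest day 0 library, and the range of day 4 overlapped that of day 2. The averaged log2 difference was -0.52 ± 0.06 by day 2, under the fold minimum, and Bax fell by 0.93 ± 0.06 by day 4 (adjusted p = 1.6e-11), a 1.90-fold lower level, with the call made in each genotype. The day 2 levels were called in WT alone (-0.64); that call was lost without WT day 2 replicate 2 (-0.55), and one was gained in Per1-/- without Per1-/- day 2 replicate 3 (-0.59).

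Bak1 (chromosome 17, 27019810 to 27029009) was 39.5, 42.7, and 35.3 FPKM in WT, 30.2, 41.9, and 39.9 in Per1-/-, and 36.2, 34.1, and 37.1 in libraries labelled Per2-/- on day 0. Day 2 values were 21.7, 19.0, and 15.9 in WT, 18.3, 18.8, and 21.3 in Per1-/-, and 23.5, 15.7, and 20.3 in libraries labelled Per2-/-. The day 4 levels were 16.9, 14.8, and 14.8 in WT, 16.5, 17.0, and 14.2 in Per1-/-, and 16.6, 14.8, and 17.0 in libraries labelled Per2-/-. Later libraries again lay below all day 0 libraries, and those of days 2 and 4 overlapped. Bak1 fell by 0.95 ± 0.08 by day 2 (adjusted p = 7.1e-10) and by 1.23 ± 0.08 by day 4 (adjusted p = 9.2e-12), 2.35-fold lower, and was called in each genotype on both days. The summed level of the pore formers was 136 ± 8 FPKM on day 0, 88.4 ± 8.3 on day 2, and 67.9 ± 4.6 on day 4 (SD, n = 9 libraries), with no overlap between any of the 3 days. These sums move with the scaling of a library, so the lack of overlap holds for the deposited FPKM only.

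Among the anti-apoptotic members, Bcl2l1 was called lower by day 4, Bcl2 was called lower on day 2 only, and Mcl1 was not called. Bcl2l1 was 36.4, 36.5, and 34.5 FPKM in WT, 25.8, 31.5, and 38.9 in Per1-/-, and 35.6, 28.7, and 31.6 in libraries labelled Per2-/- on day 0. On day 2 it was 22.8, 20.5, and 22.9 in WT, 22.6, 24.8, and 24 in Per1-/-, and 23.5, 19.0, and 19.7 in libraries labelled Per2-/-. On day 4 it was 19.2, 16.9, and 19.1 in WT, 20.9, 20.2, and 18.8 in Per1-/-, and 15.2, 17.1, and 16.9 in libraries labelled Per2-/-. Neither later day overlapped day 0. Bcl2l1 fell by 0.86 ± 0.06 by day 4 (adjusted p = 1.1e-10), 1.81-fold lower, and was called in each genotype, in Per1-/- not without Per1-/- day 0 replicate 3 (-0.51). By day 2 the averaged difference was -0.577 with an adjusted p of 6.1e-08, just under the fold minimum. It passed, between -0.585 and -0.625, without any 1 of 7 libraries: WT day 0 replicate 3, Per1-/- day 0 replicate 1, Per2-/- day 0 replicate 2, WT day 2 replicates 1 and 3, Per1-/- day 2 replicate 2, and Per2-/- day 2 replicate 1. The day 2 call in libraries labelled Per2-/- (-0.62) was lost without their day 0 replicate 1 (-0.54) or day 2 replicate 2 (-0.56).

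Mcl1, whose protein turns over quickly and is the partner of NOXA, had the smallest averaged differences from day 0 of the anti-apoptotic members. It was 67.9, 72.7, and 63.8 FPKM in WT, 62.3, 70.0, and 71.5 in Per1-/-, and 71.0, 57.1, and 64.3 in libraries labelled Per2-/- on day 0. On day 2 it was 54.5, 55.3, and 49.0 in WT, 48.9, 51.6, and 53.3 in Per1-/-, and 52.1, 45.2, and 49.1 in libraries labelled Per2-/-. On day 4 it was 63.8, 65.5, and 60.4 in WT, 64.3, 61.8, and 65.3 in Per1-/-, and 63.5, 54.3, and 60.8 in libraries labelled Per2-/-. In the deposited FPKM all day 2 libraries lay below all day 0 libraries, and day 4 overlapped both. The averaged log2 difference was -0.39 (95% interval -0.49 to -0.29) by day 2 and -0.10 (-0.20 to -0.0002) by day 4, where the adjusted p was 0.063. With FPKM rescaled to a common sum the day 4 difference was 0.21. On that scale the day 2 differences were 0.07 in WT, -0.009 in Per1-/-, and -0.06 in libraries labelled Per2-/-. Bcl2 was the lowest member in every library, at 1.22 to 2.35 FPKM on day 0 (median 1.88), 0.719 to 1.20 on day 2 (median 1.01), and 1.04 to 1.45 on day 4 (median 1.24). It fell by 0.82 ± 0.11 by day 2 (adjusted p = 8.6e-07), and by day 4 the difference was -0.45 ± 0.11 (adjusted p = 9.0e-04), under the fold minimum. On day 4 Bcl2 was called in WT (-0.72), and in Per1-/- (-0.39) only without Per1-/- day 0 replicate 1 (-0.65), the library with the lowest Bcl2 of day 0.

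**Figure D2:**
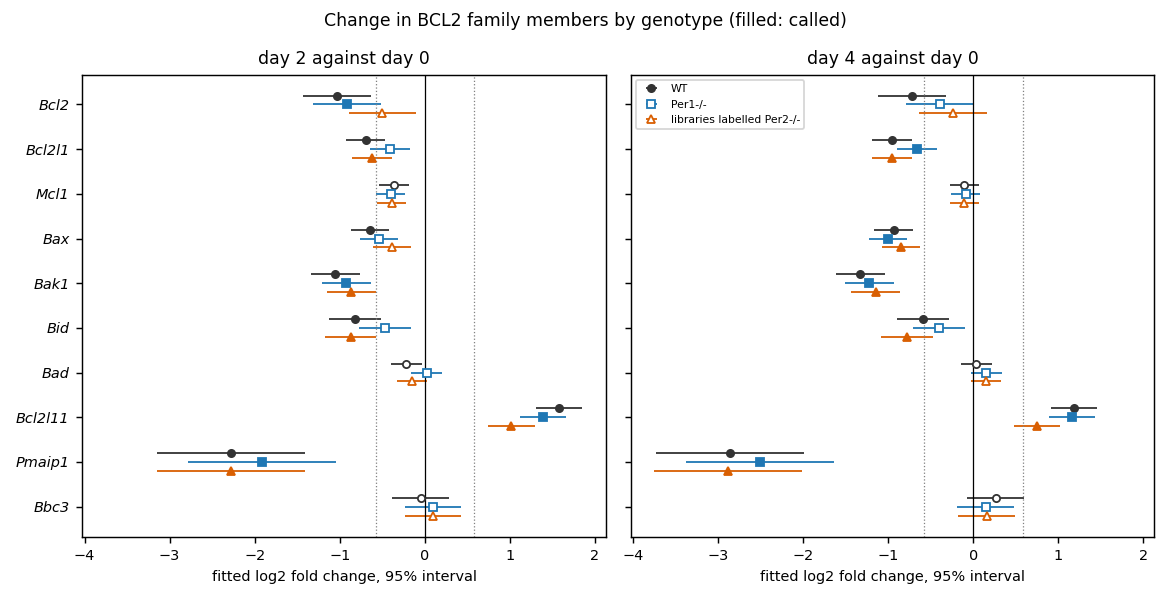
Fitted log2 fold change with its 95% interval (horizontal axes) for each member (vertical axis) in WT (circles), Per1-/- (squares), and libraries labelled Per2-/- (triangles), day 2 against day 0 on the left and day 4 against day 0 on the right; filled symbols are called and dotted lines mark 0.58 in either direction. Bcl2l11 lies to the right of zero in every genotype on both days. Bcl2, Bcl2l1, Mcl1, Bax, Bak1, Bid, and Pmaip1 lie to the left in every genotype on both days. Of these, only Pmaip1 and Bak1 are called throughout.

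Of the remaining BH3-only members, Bid was called lower on both days and Bad and Bbc3 on neither. Bid, whose protein caspase 8 cleaves to link death receptors to mitochondria, was 7.46 to 11.0 FPKM on day 0 (median 9.49), 4.73 to 6.92 on day 2 (median 5.64), and 4.95 to 8.38 on day 4 (median 6.13). It fell by 0.72 ± 0.08 by day 2 (adjusted p = 1.1e-07) and by 0.590 ± 0.085 by day 4 (adjusted p = 1.8e-06). The day 4 call was lost without any 1 of 6 libraries: WT day 0 replicate 2 (-0.565), Per1-/- day 0 replicate 1 (-0.565), Per2-/- day 0 replicate 1 (-0.568), WT day 4 replicate 1 (-0.577), Per1-/- day 4 replicate 2 (-0.528), or Per2-/- day 4 replicate 3 (-0.572). Per genotype, Bid was called on day 4 in WT (-0.59; not without WT day 0 replicate 2 at -0.51 or day 4 replicate 1 at -0.55) and in libraries labelled Per2-/- (-0.78). In Per1-/- (-0.40) it was called only without day 4 replicate 1 (-0.59). Bad, whose protein is held inactive by phosphorylation and 14-3-3 binding, ranged from 12.4 to 15.2 FPKM on day 0, 12.0 to 14.1 on day 2, and 12.7 to 16.6 on day 4. Its averaged log2 difference was -0.12 (-0.22 to -0.01) by day 2 and 0.11 (0.01 to 0.22) by day 4, and the day 2 value was 0.27 with FPKM rescaled to a common sum. Bbc3, which encodes PUMA, ranged from 9.65 to 17.0, 12.0 to 15.9, and 13.4 to 16.6 FPKM on the 3 days. Its log2 difference from day 0 was 0.05 (-0.15 to 0.24) by day 2 and 0.19 (-0.002 to 0.38) by day 4. With FPKM rescaled to a common sum these differences were 0.43 (adjusted p = 3.4e-04) and 0.50 (adjusted p = 7.3e-05), still under the fold minimum, and on that scale Bbc3 was called up in WT by day 4 (0.66, adjusted p = 0.0015).

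Counted by genotype, 16 of 30 member comparisons were called by day 2, with 40.5% of all genes called in WT, 39.6% in Per1-/-, and 35.5% in libraries labelled Per2-/-. By day 4, 18 of 30 were called: WT had 1 member up and 6 down, Per1-/- 1 up and 4 down, and libraries labelled Per2-/- 1 up and 5 down, with 43.8%, 43.0%, and 40.3% of all genes called. From day 2 to day 4 limma called 0 of 30, although 14 had an unadjusted p under 0.05, with 3.21%, 2.44%, and 4.06% of all genes called in the 3 genotypes; voom weights also gave 0, with 15 at such a p. Called in all 3 genotypes by day 4 were Bcl2l11 upward (17.6% of all genes) and Bcl2l1, Bax, Bak1, and Pmaip1 downward (15.6% of all genes). By day 2 these were Bcl2l11 upward (15.5%) and Bak1 and Pmaip1 downward (13.5%). The day 0 and day 4 ranges of the deposited FPKM over 9 libraries did not overlap for 5 members, 4 lower and 1 higher on day 4, beside 22.7% and 19.8% of all genes. Between days 0 and 2 they did not overlap for 8 members, Bcl2, Bcl2l1, Mcl1, Bax, Bak1, Bid, and Pmaip1 lower and Bcl2l11 higher, beside 21.5% and 19.7%. Days 2 and 4 overlapped in all 10 members, while 3.13% of all genes lay lower and 2.01% lay higher on day 4 without overlap.

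Ratios within a library show that the members shifted against each other. Bax stood at 1.49 ± 0.13 times Mcl1 on day 0 (range 1.32 to 1.70), 1.36 ± 0.15 on day 2, and 0.840 ± 0.108 on day 4 (range 0.707 to 1.02; SD, n = 9), and the ranges of days 0 and 4 did not overlap. Bax over Bcl2l1 was 3.00 ± 0.39, 3.12 ± 0.31, and 2.87 ± 0.38 on the 3 days. Mcl1 over Bcl2l1 was 2.02 ± 0.19 on day 0, 2.31 ± 0.20 on day 2, and 3.43 ± 0.39 on day 4, so that Mcl1 made up more of the anti-apoptotic transcripts later. The largest shift of these 4 ratios was within the BH3-only group: Bcl2l11 over Pmaip1 was 0.0649 ± 0.0402, 0.649 ± 0.124, and 0.806 ± 0.203 on the 3 days, and every later library lay above every day 0 library. The summed BH3-only level was 100 ± 26, 52.3 ± 4.5, and 50.9 ± 3.3 FPKM, and the summed anti-apoptotic level 102 ± 9, 74.2 ± 4.5, and 81.7 ± 4.2.

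**Figure D3:**
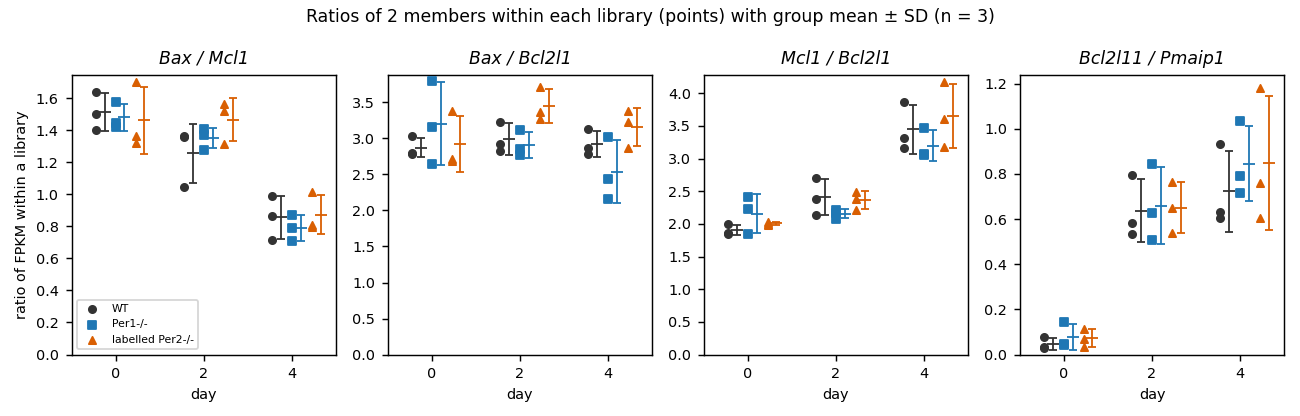
Ratio of the FPKM of a pair of members within each library (vertical axes, from 0) by day in WT (circles), Per1-/- (squares), and libraries labelled Per2-/- (triangles), with group means ± SD (n = 3). Bax over Mcl1 ends near or below 1 on day 4, Bax over Bcl2l1 stays near 3, and the other ratios rise from day 0 to day 4.

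The order of the members by level also moved. On day 0 Bax led in most libraries with Mcl1 next, Pmaip1 ranked anywhere from 1 to 5, and Bcl2l1 and Bak1 overlapped at about 26 to 43 FPKM. On day 4 Mcl1 and Bax held ranks 1 and 2, with ranges of 54.3 to 65.5 and 43.7 to 59.8 FPKM that overlapped, and Pmaip1 ranked from 7 to 9. Bcl2l1 and Bak1 overlapped on day 4, as did Bad and Bbc3, while Bcl2 was rank 10 in all libraries.

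No member was called between genotypes within a day by limma (0 of 90 member comparisons; 3 of 90 had an unadjusted p under 0.05, and with voom weights 0 were called and 4 had such a p). Of all genes, 0.0134%, 0.00670%, and 0.0268% were called in Per1-/- against WT on days 0, 2, and 4. These shares were 0.0201%, 0.0737%, and 0.556% in Per1-/- against libraries labelled Per2-/-, and 0.00670%, 0.0268%, and 0.00670% in the latter against WT. Summed over the 9 comparisons, where a gene can count more than once, limma made 87 upward and 23 downward calls, and voom weights 244 and 40. The study tested with DESeq2 at these thresholds and reported more genes differing between Per1-/- and both other genotypes. Small shares here therefore do not show that the genotypes were alike. The 3 member comparisons with an unadjusted p under 0.05 by limma were as follows. They were Bcl2l11 in libraries labelled Per2-/- against WT on day 2 (-0.35, 95% interval -0.62 to -0.08), and Bcl2l1 (0.28, 0.05 to 0.52) and Bcl2l11 (0.30, 0.03 to 0.57) in Per1-/- against libraries labelled Per2-/- on day 4. The 95% intervals of all 9 comparisons stayed within -0.29 and 0.27 for Mcl1, -0.37 and 0.34 for Bax, and -0.26 and 0.34 for Bad, but reached from -1.36 to 1.14 for Pmaip1, for which these data leave differences of over 2-fold undecided. On day 2 the 3 libraries labelled Per2-/- lay below the 6 others in Bcl2l11 (6.41 to 7.13 against 7.17 to 9.41 FPKM), as 4.65% of all genes set them apart in either direction. They did so for Bax on day 0, at 85.0 to 96.9 FPKM against 98.2 to 105 (1.67% of all genes). WT libraries lay above the 6 others in Bbc3 on day 4, at 15.2 to 16.6 FPKM (1.51% of all genes). In no member did the Per1-/- libraries stand apart from the 6 others on any day, while 1.47%, 4.90%, and 7.59% of all genes set them apart on days 0, 2, and 4.

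The rise of Bcl2l11 was the one member change whose difference between genotypes had an unadjusted p under 0.05. By day 2 it was 1.58 ± 0.13 in WT, 1.38 ± 0.13 in Per1-/-, and 1.02 ± 0.13 in libraries labelled Per2-/- (log2 ± SE). The difference of the last from WT was -0.56 (95% interval -0.95 to -0.18, adjusted p = 1.0). By day 4 it was -0.43 (-0.81 to -0.04), and Per1-/- exceeded libraries labelled Per2-/- by 0.41 (0.03 to 0.79). None of the 60 such member differences was called by limma (0 also with voom weights, each with 3 at an unadjusted p under 0.05), nor was any of the 14932 genes (0%).

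Macrophage transcripts differed between these groups. The summed level of 20 macrophage markers on day 4 was 1385 to 2464 FPKM in Per1-/-, 708 to 1225 in WT, and 538 to 920 in libraries labelled Per2-/-. On day 0 these sums were 233 to 1274, 254 to 554, and 156 to 641 FPKM. Their part in the genotype differences of Bcl2l1 and Bcl2l11 was not tested. In bulk RNA, fewer cells of a type and less RNA per cell cannot be told apart.

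Other cell markers moved with the days as well. Over all 9 libraries the summed macrophage markers were 156 to 1274 FPKM on day 0, 208 to 1457 on day 2, and 538 to 2464 on day 4, and 17 of the 19 tested rose by day 4 (median 1.75), with Mrc1 at 2.63, Spi1 at 2.45, Cx3cr1 at 2.43, and Adgre1 at 2.35 on the log2 scale. Cd163 stayed under 0.1 FPKM on each day. Of 14 tested neuron markers 11 rose and 1 fell (median 2.94), led by Elavl3 at 5.91, Syt1 at 5.33, Stmn3 at 5.07, and Dcx at 4.93. Of 14 fibroblast markers 8 rose and 4 fell (median 0.64), among them Lum at 5.24, Dcn at 3.58, Col3a1 at 2.88, and Thy1 at -2.27. Of 12 markers of dividing cells 10 fell and none rose (median -1.08), with Rrm2 at -2.11, Ccnb1 at -1.66, Plk1 at -1.66, and Bub1 at -1.44. The part of these shifts in the changes of the members between days was not tested.

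Other genes of the pathway, from lists of related genes, are given for day 4 against day 0 averaged over genotypes, where the median of all tested genes was -0.0059 and 24.4% of them were called up and 21.2% down. Of 15 other BCL2-like genes 8 were tested, 1 rose and 2 fell (median -0.28): Bmf, a BH3-only gene, rose from 0.910 to 2.81 FPKM (log2 1.61), and Bok, a relative of Bax and Bak1, fell from 18.6 to 6.06 FPKM (-1.63). Bnip3 fell by 0.90. Of 10 genes of cytochrome c release and the apoptosome 6 fell and none rose (median -0.64), beside those 21.2% down and 24.4% up among all tested genes. Cycs, which encodes cytochrome c itself, fell from 28.2 to 11.8 FPKM (-1.23), and the mitochondrial channel genes Vdac2 (-1.20) and Vdac1 (-0.78) and the gene Aifm1 (-0.85) fell in each genotype.

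Caspase genes leaned upward, with 4 of 8 called up and 1 down (median 0.61). Casp1, an inflammatory caspase of macrophages, rose from 1.14 to 4.19 FPKM (2.01), and Casp8, the initiator that cleaves BID, fell from 14.8 to 8.69 FPKM (-0.76). Of 8 inhibitors of apoptosis proteins 6 were tested, 2 rose and 1 fell (median 0.22): Birc2 rose by 0.68 on the log2 scale, and Birc5, which also serves in mitosis, fell by 1.66. In the death receptor pathway 9 of 11 genes were tested, 1 rose and 3 fell (median -0.26): Fas rose by 0.89 on the log2 scale, and Ripk3 (-2.17) and Mlkl (-1.71), which carry out necroptosis, and the TRAIL receptor gene Tnfrsf10b (-1.57) fell.

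Of 20 genes listed for the p53 pathway, Pmaip1, Bbc3, and Bax among them, 12 fell, Pmaip1 and Bax included, and 2 rose (median -0.89), beside 21.2% down and 24.4% up among all tested genes. Among those that fell was Trp53, from 38.4 to 20.5 FPKM (-0.90), which encodes p53 itself and is not a target. The largest changes outside the members were those of Perp (-2.56), Gtse1 (-1.98), and Ccng1 (-1.69), which fell, and Sesn1 (1.90), which rose. Of 14 upstream regulators of the BH3-only genes and BCL2 proteins 3 fell and 2 rose (median -0.31). Dynll1, a dynein light chain that tethers BIM, fell by 0.82, the stress factor gene Ddit3 by 0.77, and the 14-3-3 gene Ywhaz by 0.62.

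**Figure D4:**
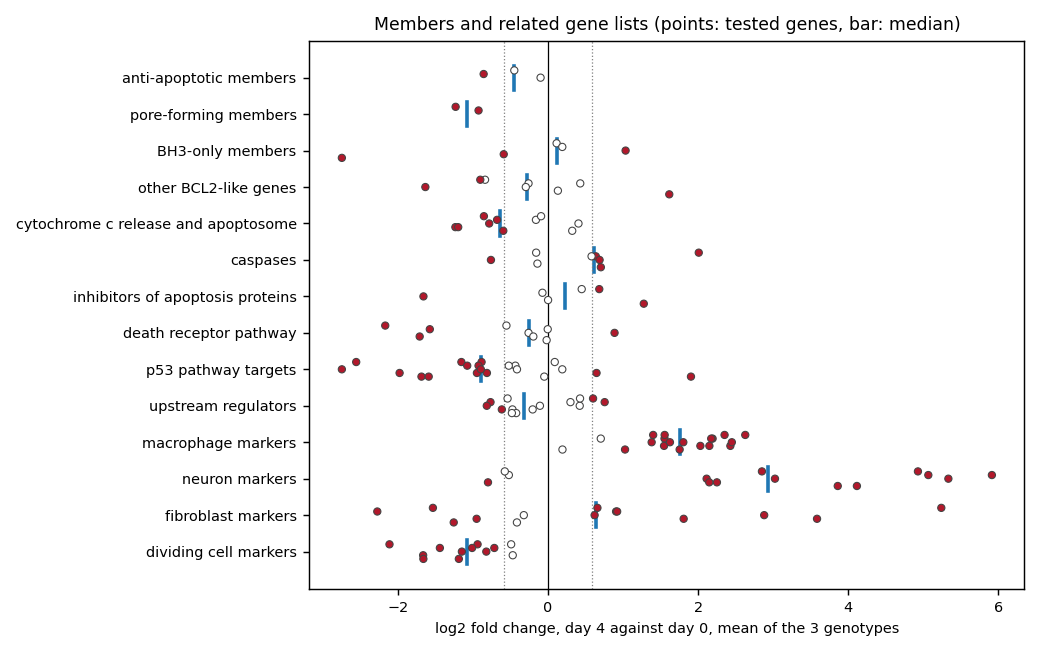
Log2 fold change from day 0 to day 4, averaged over the 3 genotypes (horizontal axis), of each tested gene (points) of the members by role and of the related lists (vertical axis). Filled points are called, blue bars are list medians, and dotted lines mark 0.58; both pore formers lie to the left, and the caspases are the pathway list with the highest median (0.61).

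The genes most like the 2 members of widest spread were found by Pearson's r over the 27 libraries on the log2 scale, a description in which the day difference counts most. Closest to Pmaip1 were Itgb1 (r = 0.978), Nes (0.973), Smad7 (0.972), Lif (0.970), and Mcam (0.968). With the mean of each day taken out, r was between 0.783 and 0.842 for these 5. These genes and those given next for Bcl2l11 were picked by r over the same values, spread within a day included. A high r with day means taken out is therefore partly built in and is no further check. Itgb1, which encodes the integrin β1 chain, was at 781 ± 148, 384 ± 21, and 317 ± 17 FPKM on the 3 days. Closest to Bcl2l11 were Adcy2 (r = 0.975), R3hdml (0.974), Kcna5 (0.971), Kdm5b (0.970), and Serpini1 (0.966), with r between 0.567 and 0.768 once day means were taken out. Kdm5b, a histone demethylase gene, was at 6.22 ± 0.75, 13.2 ± 0.7, and 11.6 ± 0.9 FPKM (SD, n = 9).

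Bad, Bid, Bak1, Bcl2, and Bax share exon bases with a neighbouring gene, and the libraries were nondirectional, so that fragments do not show their strand. Bad shares 524 bases with Gpr137, Bid 628 with Bcl2l13, Bak1 437 with Ggnbp1, and Bcl2 558 with an antisense RNA, all on the opposite strand, and Bax 192 with Gm45808 on the same strand. The overlaps were taken from an annotation in which Bad has 2558 exon bases, against 2007 in the deposited table, so the bases shared by Bad may not all have been counted. Fragments in shared bases cannot be assigned between the partners. Gpr137 averaged 7.81, 11.0, and 10.3 FPKM and Bcl2l13 6.77, 5.39, and 5.49 FPKM on the 3 days, and the other partners were under 1 FPKM.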

How the data were processed

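Bulk RNA-seq of 27 libraries was used, grouped by the genotype and day in the sample labels. Per the paper and the labels, the authors aligned reads to GRCm38 with HISAT2 2.0.5, counted fragments on genes with featureCounts 1.5.0-p3, and deposited FPKM, the only values used; 0 per-sample columns were left unused. The deposited FPKM solved to whole fragments (within 0.01) for 100% of values with the gene lengths in the file, which gave the depths. Their denominators were not plain totals: the ratio of fragments to denominator was higher on day 0 than later.

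FPKM were tested as log2(FPKM + 0.1) with limma 3.58.1 (trend; R 4.3.3) in 1 model of 9 groups without a replicate block, over 14932 genes that averaged 0.5 FPKM or more. The pseudocount understates changes of low genes such as Bcl2. P-values were two-sided and adjusted by Benjamini-Hochberg over all tested genes. On simulated fragments for WT, day 4 against day 0, with 14932 genes, 70.5% of 200 genes changed by 1 on the log2 scale and 86.5% of 200 changed by 2 were called in the right direction, with 4 and 7 false calls. Tables and figures were made with Python 3.11.15, pandas 2.3.3, and matplotlib 3.10.9.

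Alternatives were pseudocounts of 0.01 and 1, other filters, size factors by TMM, a common FPKM sum, voom weights on the recovered fragments, fits of the compared groups only, a replicate block, no fold minimum, and each library left out. Named genes were all members, Per1 and Per2, up to 4 genes per list with the largest averaged day 4 change among those called alike in all 3 genotypes, and the 5 genes most like each of the 2 members with the widest spread. The partner genes with shared exons, the markers at low level on day 0, and the neuron markers with higher levels on that day were named after their values were seen. The members and lists were chosen with earlier results of these data known. Single-cell data of the study were not analysed here. One item of the study is not reported here.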

Additional observations from a re-analysis of the deposited data

How the results depend on the processing

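With FPKM rescaled to a common sum, 8 of 30 member comparisons were called by day 2 and 1 from day 2 to day 4, in place of 16 and 0, and of the averaged changes 2 of 10 were called by day 2 and 1 from day 2 to day 4, in place of 5 and 0. On that scale the averaged difference of Bad by day 2 was 0.27 and that of Mcl1 by day 4 was 0.21, both with the sign turned. Without the fold minimum, 25 and 5 of 30 were called in these comparisons, and 9 and 7 of the averaged 10. Fitting only the compared groups called 1 averaged change, of Pmaip1, from day 2 to day 4. With 1 library left out, calls of 30 ranged from 15 to 17 by day 2, from 17 to 19 by day 4, and from 0 to 0 from day 2 to day 4; the averaged calls ranged from 5 to 6, from 5 to 6, and from 0 to 1, and those between genotypes and of their interactions stayed at 0. The averaged Bbc3 difference by day 2 ranged from -0.026 (without Per1-/- day 0 replicate 2) to 0.113. The other 70 counts under other settings stayed within 1.5 times the reported count.

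Libraries of 1 genotype with the same number on different days had correlated deviations from their group means in 14 of 27 pairs (r over 0.1, range -0.017 to 0.294). Pairs with different numbers had them in 0 of 54 (highest r 0.088). In 48 of 54 checks the highest r was with a library's own number. Libraries with the same number thus shared some of their spread. The labels do not say what the numbers mark, and the main fit did not pair them. With genotype and number as a replicate block, 16 of 30 were called by day 2 and 18 by day 4 as before, and 1 averaged change, of Pmaip1, from day 2 to day 4 (adjusted p = 0.0050). With a replicate block within a day, 0 members differed between genotypes.

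With 3 replicates per group, the intervals of the genotype differences were widest for Pmaip1, whose day 0 libraries differed most. The level of Bcl2 rests on 128 to 379 fragments per library.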
